A study of Mus musculus with 8 samples.

Results

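The loci that encode the antigen receptors of B and T cells were examined for replication timing in mouse embryonic stem cells, a pluripotent cell type in which these genes are not rearranged and the receptors are not made. The members were the 5 kb positions of 4 regions on mm10: the immunoglobulin heavy chain locus Igh (chr12:113220000-116010000), the immunoglobulin kappa light chain locus Igk (chr6:67550000-70730000), the combined T cell receptor alpha and delta locus Tcra and Tcrd (chr14:52420000-54230000) and the T cell receptor beta locus Tcrb (chr6:40890000-41560000). They held 1694 of the 526745 positions of the deposited table, with 559 in Igh, 637 in Igk, 363 in Tcra and Tcrd and 135 in Tcrb. All 1694 had a value in every profile, and the positions were chosen by coordinates, not by their scores.

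Antigen receptor genes are assembled in lymphocytes by V(D)J recombination, in which the RAG1 and RAG2 proteins cut and join variable (V), diversity (D) and joining (J) segments next to a constant region. Each locus carries its constant region near one end and an array of V segments that can span megabases. In non-B cells, the early replicating constant end and the late replicating V array of Igh are a classic example of a timing transition, and in B cell progenitors the zinc finger factor YY1 is required for contraction of Igh and for the use of its distal V segments.

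The assay was Repli-seq. Cells took up the nucleotide analogue BrdU for 2 h and were sorted by DNA content into an early and a late fraction of S phase, and the newly made DNA of 40000 cells of each was sequenced. The 8 samples gave 4 profiles, named control 1, control 2, dTAG 1 and dTAG 2, each combining both fractions. The dTAG groups were taken 2 days after dTAG, a compound that sends a protein fused to its tag to the proteasome, here YY1 by the series title. For the control the labels give no further treatment, and for both groups they give no strain, clone or tagged allele and refer to an earlier publication for culture and treatment. Nothing in the labels says that the replicate numbers were separate cultures, so the spread between them may be technical. For dTAG 1, the title letters and the labelled fractions name opposite samples as early.

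The timing score is the authors' smoothed and quantile normalised value, in score units whose formula, log base and sign the table does not state. A high score was taken to mean early replication, since 79 of 80 genes for cytosolic ribosomal proteins, which are active in all dividing cells, had positive scores. The stem cell genes Pou5f1, Nanog, Sox2 and Esrrb scored 3.75, 3.20, 3.81 and 3.92 (means of 4 profiles), which is not a measure of their expression. The profiles with replicate number 2 held the sign-turned distribution of those with number 1, with means of -0.20 and 0.20, so the numbers differ on average over the genome. Single loci depart from that average: control 1 minus control 2 was -0.38 at Igh and 1.07 at Tcrb. Differences within each replicate number are therefore given beside those of the groups. The depth behind the scores is unknown, and neighbouring positions share reads through smoothing and are not independent.

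Sequence in and beside the loci other than Igk is shown by 4 RefSeq promoters (GRCm38.p6, the assembly of mm10), chosen by their position. That of Tmem121 stands on the early side of the fall in Igh described below, and that of Adam6a within this fall. That of Dad1 stands outside the early end of Tcra, and that of Prss2 within the rise in Tcrb. Each runs 5′ to 3′ from 250 bases before to 50 bases after the start of the gene, and capitals mark CpG dinucleotides. Tmem121, a membrane protein gene beside the constant end of Igh, has its promoter at chr12:113185653-113185952 (+ strand). Adam6a, a sperm protease-family gene between the V and D segments of Igh, has it at chr12:113543658-113543957 (+). Dad1, a subunit gene of the oligosaccharyltransferase beside the constant end of Tcra, has it at chr14:54253880-54254179 (-). Prss2, a trypsinogen gene beside the D, J and constant segments of Tcrb, has it at chr6:41521526-41521825 (+).
Tmem121: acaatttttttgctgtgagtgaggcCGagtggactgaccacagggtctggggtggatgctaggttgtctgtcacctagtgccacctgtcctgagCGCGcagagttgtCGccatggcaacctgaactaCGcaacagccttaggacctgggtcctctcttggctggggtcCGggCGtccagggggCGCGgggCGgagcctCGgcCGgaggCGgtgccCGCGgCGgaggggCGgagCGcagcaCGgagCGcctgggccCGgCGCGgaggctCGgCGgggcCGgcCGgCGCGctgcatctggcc
Adam6a: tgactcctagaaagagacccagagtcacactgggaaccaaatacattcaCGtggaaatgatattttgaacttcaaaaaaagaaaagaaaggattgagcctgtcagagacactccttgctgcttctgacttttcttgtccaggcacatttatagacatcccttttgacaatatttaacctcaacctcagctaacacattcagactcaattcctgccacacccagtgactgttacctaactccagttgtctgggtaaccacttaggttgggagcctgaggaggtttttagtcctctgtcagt
Dad1: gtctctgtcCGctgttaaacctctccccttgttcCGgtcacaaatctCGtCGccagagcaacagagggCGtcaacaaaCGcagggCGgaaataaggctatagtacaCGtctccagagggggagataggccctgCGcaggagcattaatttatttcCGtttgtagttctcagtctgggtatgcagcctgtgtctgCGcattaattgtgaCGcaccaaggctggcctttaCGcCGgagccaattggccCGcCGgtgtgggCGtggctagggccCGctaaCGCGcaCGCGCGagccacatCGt
Prss2: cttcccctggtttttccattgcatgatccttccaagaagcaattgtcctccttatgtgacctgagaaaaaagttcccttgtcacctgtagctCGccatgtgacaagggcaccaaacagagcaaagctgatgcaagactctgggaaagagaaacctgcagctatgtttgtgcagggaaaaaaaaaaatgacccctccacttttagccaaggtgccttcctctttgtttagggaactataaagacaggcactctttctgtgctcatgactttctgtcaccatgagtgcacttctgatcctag

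The promoters of Tmem121 and Dad1 held 29 and 24 CpG dinucleotides at 70.0% and 57.3% GC, and their scores were 3.80 ± 0.17 and 3.82 ± 0.15 (SD, 4 profiles). Those of Adam6a and Prss2 held 1 CpG each at 43.0% and 45.7% GC, and their scores were -1.53 ± 0.58 and -0.27 ± 0.81. Over the table, the 28 promoters inside the loci had a median of 43.3% GC and 1 CpG, the 229 in the flanks had 55.3% and 9, and all 32851 promoters had 52.7% and 7. The gap was wide at Igh, with medians of 43.0% GC inside and 66.0% in the flanks, and nearly absent at Tcrb, with 45.3% and 45.7%. It was 42.7% and 51.7% at Igk and 40.0% and 57.3% at Tcra and Tcrd. These medians rest on few promoters inside the loci: 7 in Igh, 5 in Igk, 6 in Tcra and Tcrd and 10 in Tcrb. The YY1 core motif CCATNTT, searched on both strands, was in none of the 4 printed promoters. It was in 4 of 28 promoters inside the loci (14.3%), 34 of 229 in the flanks (14.8%) and 16.1% of all promoters. Of the 639 antigen receptor segments in the 4 loci none has an entry in the promoter table, so these promoters belong to other genes.

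**Figure D1:**
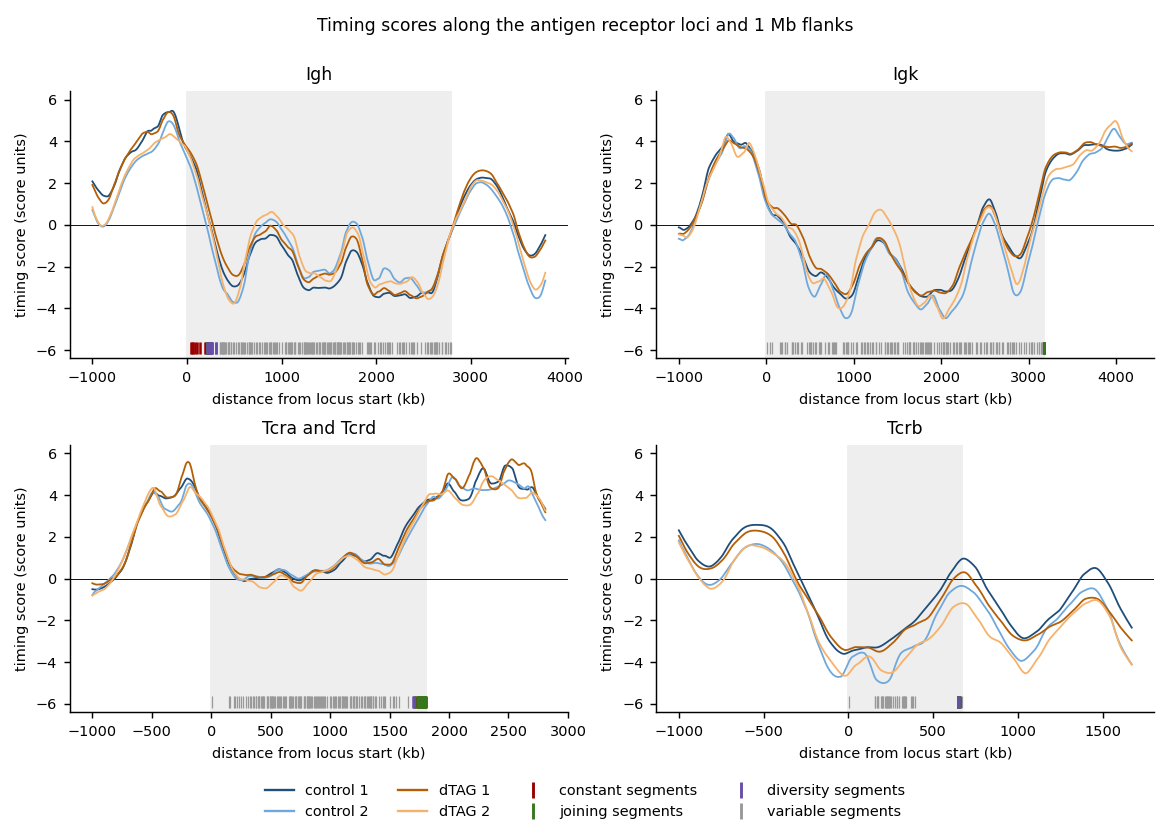
Timing score (y axis, score units) against distance from the start of each locus (x axis, kb) for the 4 profiles, with the locus shaded and ticks for its gene segments. Igh and Igk are valleys with internal peaks. Both flanks are early at Igk, while at Igh the flank beside the constant end is early and the other averages near 0. Tcra and Tcrd lies near and above 0, and Tcrb rises from its V segments to its constant end.

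Igh, Igk and Tcrb replicated late as wholes, and Tcra and Tcrd replicated in the middle of the scale. The mean score of Igh was -1.92 and -1.54 in control 1 and 2 and -1.59 and -1.47 in dTAG 1 and 2. That of Igk was -1.52 and -2.10 in the controls and -1.34 and -1.54 after dTAG. All 8 of these values were below 0, and the ranges of the loci overlapped. Tcrb scored -1.98 and -3.05 in the controls and -2.23 and -3.32 after dTAG, with both profiles of replicate number 2 lower than both of number 1. Tcra and Tcrd scored 0.94 and 0.81 in the controls and 0.89 and 0.69 after dTAG, so all 4 were above 0.

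Of the genome's positions, 37.8% scored below the mean of Igh, 37.8% below that of Igk, 56.5% below that of Tcra and Tcrd and 29.0% below that of Tcrb. Of 50 kb windows, 43 of 56 in Igh, 43 of 64 in Igk and 11 of 13 in Tcrb were below 0 in all 4 profiles, against 46.2% of all windows. In Tcra and Tcrd 0 of 37 windows were, and 27 were above 0 in all 4, against 46.3% of all windows. The order of the means was Tcra and Tcrd, then Igk and Igh, then Tcrb. Igh and Igk did not differ in 1 direction, as Igh was lower in 2 profiles and higher in 2 (mean difference -0.01 ± 0.43, SD). Igk was above Tcrb in 4 of 4 profiles (1.03 ± 0.55), and Igh was below Tcra and Tcrd in 4 of 4 (-2.46 ± 0.30). An exact sign-flip test over 4 profiles cannot give a p below 0.125, the value of both comparisons (adjusted p = 0.144 over 15 pairs of loci).

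The other light chain locus and the T cell receptor gamma locus, which are far smaller, were the most similar regions. Igl (chr16:19060000-19260000) scored 1.84 ± 0.15 (SD, 4 profiles), above each of the 4 loci in every profile. Tcrg (chr13:19180000-19355000) scored 0.89 ± 0.17 and did not separate from Tcra and Tcrd, which was lower in 3 of 4 profiles (-0.06 ± 0.15, exact sign-flip p = 0.5, adjusted p = 0.536). Igh scored lower than Igl by a mean difference of -3.46 ± 0.13 and Igk by -3.46 ± 0.44 (exact sign-flip p = 0.125 each, adjusted p = 0.144).

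**Figure D2:**
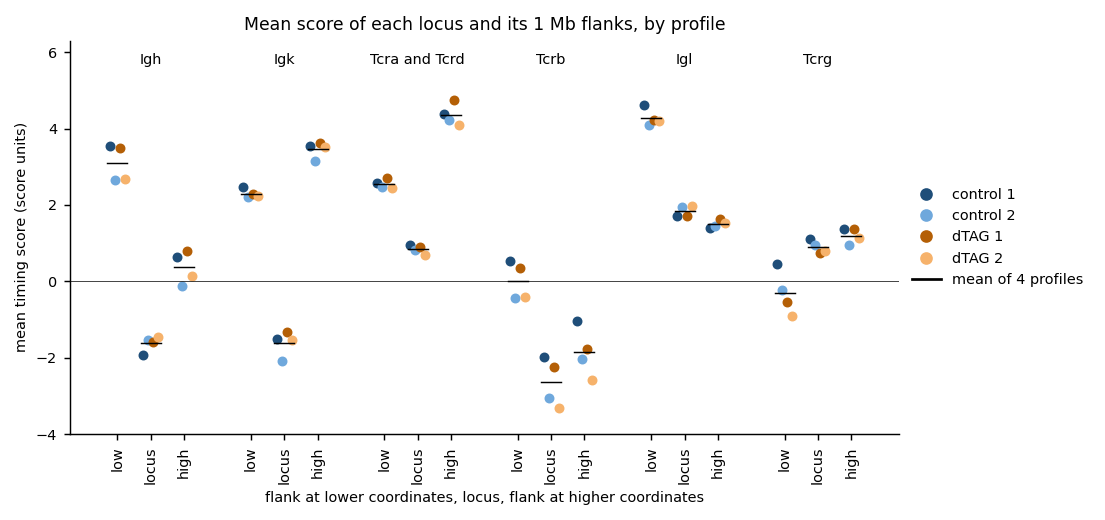
Mean timing score (y axis, score units) of each locus and of its 1 Mb flank at lower and at higher coordinates (x axis), with 1 point per profile and a bar at the mean of the 4. Igh, Igk, Tcra and Tcrd and Tcrb lie below the mean of their flanks in every profile, and Tcrg lies above it.

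Each locus was later than its own neighbourhood. The 1 Mb flanks of Igk scored 2.30 ± 0.11 on the V side and 3.45 ± 0.21 on the constant side (SD, 4 profiles), and the locus lay below their mean by -4.52, -4.78, -4.29 and -4.41 in control 1, control 2, dTAG 1 and dTAG 2. For Igh the flank beside the constant region scored 3.09 ± 0.49 and the one beyond the V segments 0.37 ± 0.42, and the locus minus flanks was -4.01, -2.81, -3.73 and -2.89. The flanks of Tcra and Tcrd scored 2.54 ± 0.12 and 4.36 ± 0.28, and the contrast was -2.54, -2.53, -2.83 and -2.58. The smallest contrast of the 4 loci was that of Tcrb, at -1.73, -1.81, -1.52 and -1.82, where the flanks scored 0.01 ± 0.50 and -1.86 ± 0.65 and were themselves near or below 0. The sign was the same in 4 of 4 profiles at each of the 4 loci, with an exact 2-sided sign-flip p of 0.125, the smallest this design allows. Igl also lay below its flanks, by -1.06 ± 0.25 with 4 of 4 profiles negative, so a negative contrast was not particular to the 4 loci. At Tcrg the contrast had the opposite sign, 0.45 ± 0.22 with 4 of 4 profiles positive (exact sign-flip p = 0.125 for both).

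In this measure the groups overlapped at Igh and Tcrb and did not overlap at Igk, where both dTAG values were above both controls, and at Tcra and Tcrd, where both were below. The difference of dTAG minus control was 0.10 at Igh (0.28 within replicate number 1 and -0.08 within number 2), 0.30 at Igk (0.23 and 0.37), -0.17 at Tcra and Tcrd (-0.30 and -0.04) and 0.10 at Tcrb (0.20 and -0.01). The exact permutation p was 0.333 at Igk and at Tcra and Tcrd, the smallest that 2 profiles against 2 can give, and 1 at Igh and Tcrb.

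In each locus the constant region was earlier than the V segments on average. In Igh the constant genes scored 1.62 to 2.61 as a class mean over the 4 profiles, the V segments -2.32 to -1.81, and the gap between the classes was 4.15 ± 0.55 (SD, 4 profiles; 8 and 184 segments). It was 3.67 ± 0.27 in Igk, 2.87 ± 0.22 in Tcra and Tcrd and 3.36 ± 0.42 in Tcrb, and positive in 4 of 4 profiles in each (exact sign-flip p = 0.125, adjusted p = 0.156 over 5 contrasts). Over the 4 loci, 307 of 517 V segments scored below 0 in all 4 profiles and 99 above, while 0 of 13 constant genes scored below and 11 above. The other 2 constant genes are Trbc1 and Trbc2 of Tcrb. Segments within a few kilobases share a score, so that the 517 V segments stand on 485 positions and the 85 J segments on 20.

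**Figure D3:**
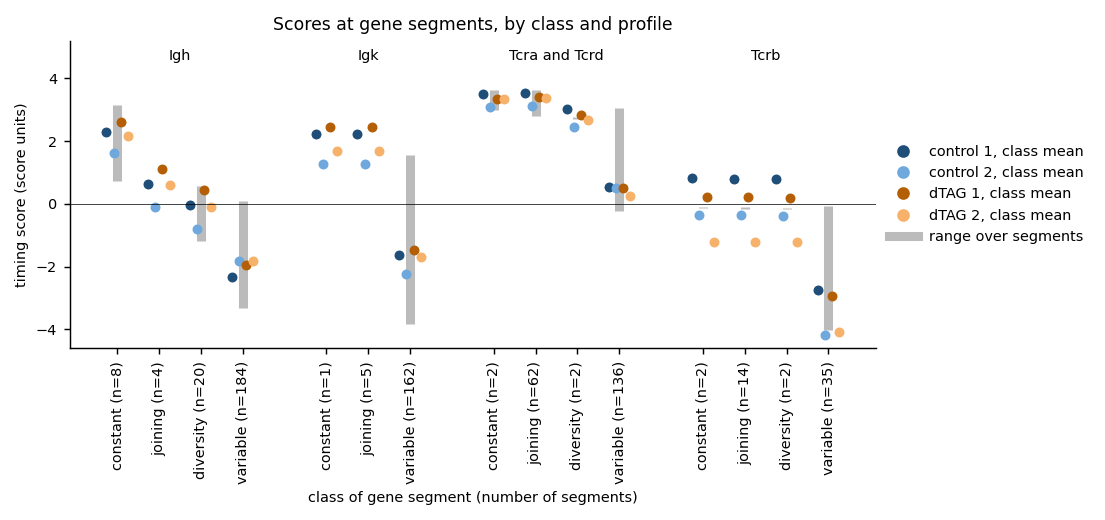
Timing score (y axis, score units) at the midpoints of gene segments by class and locus (x axis, with the number of segments), with 1 point per profile for the class mean and a grey bar for the range over segments of the mean of 4 profiles. The class means of constant and J segments lie above that of the V segments of the same locus in every profile. In Tcra and Tcrd and in Tcrb the range of the V segments overlaps those of the constant and J segments.

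Igh fell from early to late across its constant, J and D segments. Igha, the constant gene of IgA and the outermost of the 8, scored 3.25 and 2.74 in the controls and 3.44 and 3.18 after dTAG. The next constant genes decreased in the order of their position: the means of 4 profiles were 3.05 at Ighe (IgE), 2.82 at Ighg2c, 2.64 at Ighg2b, 2.30 at Ighg1 and 1.78 at Ighg3 (the IgG subclasses), 0.91 at Ighd (IgD) and 0.73 at Ighm (IgM). Ighm, the constant gene used first in B cell development, scored 0.80 and 0.09 in the controls and 1.28 and 0.76 after dTAG. The 4 J segments, all on 1 position, scored 0.62 and -0.09 in the controls and 1.1 and 0.60 after dTAG, and the 20 D segments -0.05 and -0.81 against 0.45 and -0.10. The V segment nearest to them, the pseudogene Ighv5-1, was at -1.88 and -2.74 in the controls and -1.27 and -2.30 after dTAG, late in all 4 profiles.

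The score passed 0 at chr12 position 113465867 in control 1, 113425139 in control 2, 113495071 in dTAG 1 and 113463156 in dTAG 2. These points are 205 to 275 kb from the start of the locus. Control 2 passed 0 between Ighm and the J segments, and the other profiles passed it within the D cluster, which spans chr12:113430528-113526809. The steepest change over 200 kb in the locus was here, from 130 to 330 kb after the start, at -3.60, -3.65, -3.39 and -3.70 in control 1, control 2, dTAG 1 and dTAG 2. Of all 200 kb steps in the genome, 0.410% changed as much or more in either direction, and the median size was 0.76. Adam6b and Adam6a, which lie in this slope, scored -0.83 ± 0.58 and -1.82 ± 0.59 (SD, n = 2) in the control and -0.20 ± 0.42 and -1.25 ± 0.59 after dTAG.

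**Figure D4:**
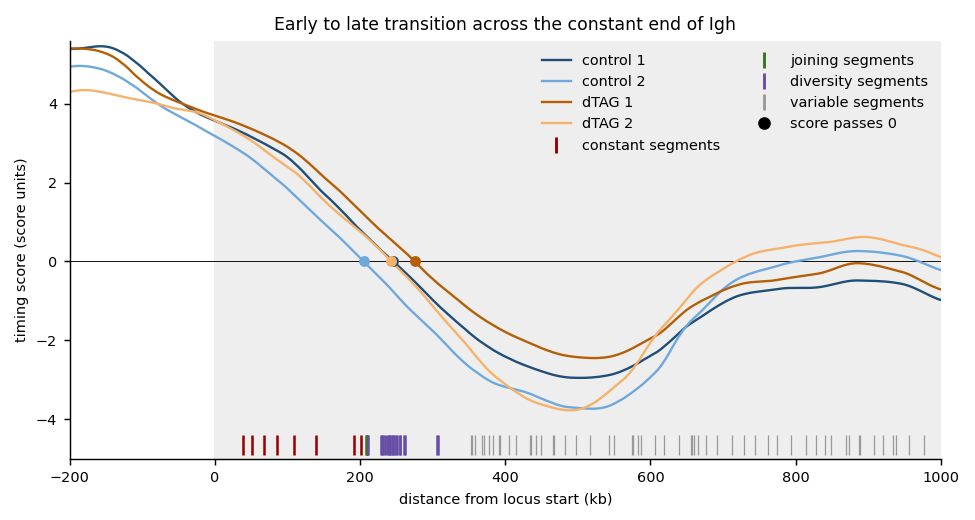
Timing score (y axis, score units) against distance from the start of Igh (x axis, kb) for the 4 profiles around its constant end, with ticks for gene segments and points where the score passes 0. The crossings lie between 205 and 275 kb, within or beside the D segments.

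Beyond the transition, the V array of Igh was late but not flat. Its first trough lay 500 kb from the start, at Ighv2-6, with -2.95 and -3.72 in the controls and -2.43 and -3.76 after dTAG. A peak followed at 890.0 kb, beside Ighv9-2, with -0.48 and 0.26 in the controls and -0.05 and 0.62 after dTAG. A further peak stood at 1755.0 kb, beside Ighv1-46, with -1.22 and 0.15 against -0.56 and -0.13. Both peaks were found in all 4 profiles within 10 kb of each other, and at each the profiles of number 2 were above those of number 1, opposite to the sign of the genome-wide offset. The far end rose again, and the outermost segment Ighv1-86 scored -0.42 and -0.42 in the controls and -0.38 and -0.36 after dTAG. The score passed 0 outside the locus, between 2816 and 2830 kb from its start, near the zinc finger gene Zfp386 (0.16, 0.05, 0.29 and 0.18 in control 1, control 2, dTAG 1 and dTAG 2).

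The straight line over the whole of Igh sloped by -1.24, -0.76, -1.39 and -1.14 score units per Mb, away from the constant region, and accounted for 0.344 of the variance of the mean profile (r squared), since most of the fall lay in its first part. The proximal families Ighv2 and Ighv5 scored -2.65 ± 0.42 and -2.60 ± 0.39 in the control (SD, n = 2), and the large distal family Ighv1 -2.25 ± 0.56 with Ighv8 at -2.45 ± 0.50. The distal minus proximal gap was -0.34 and 1.01 in the controls and -0.51 and 0.46 after dTAG, so its sign followed the replicate number (exact sign-flip p = 0.750). The small middle family Ighv3, near the first peak, was the least late of those with 5 or more segments, at -0.83 ± 0.49 in the control.

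Igk was early at both ends, with its constant gene and the far end of its V array both above 0. Igkc, the single constant gene, scored 2.23 and 1.28 in the controls and 2.47 and 1.67 after dTAG, and its J segments lie on the same position. Igkv3-1, the nearest V segment, scored 1.83 and 0.96 against 2.09 and 1.39, and Igkv2-137, the farthest, 1.05 and 0.96 against 1.15 and 1.31. The slope over the locus was 0.30 and -0.04 per Mb in the controls and 0.14 and -0.01 after dTAG, without a common sign, and a straight line accounted for 0.00362 of the variance (r squared). The steepest 200 kb change was at the constant end, at 3.34, 3.37, 3.20 and 3.18, which 1.24% of the genome's steps equalled or passed.

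Between its ends Igk had 3 troughs and a pair of peaks in the mean of 4 profiles. The troughs, at Igkv15-103, Igkv4-56 and Igkv6-15, averaged -3.97, -3.81 and -2.47 in the control. The trough at Igkv4-56 was found as a separate trough in control 2 and dTAG 2 but not in control 1 or dTAG 1. The peak at 2550.0 kb scored 1.22 and 0.53 in the controls and 0.93 and 0.84 after dTAG, above 0 in all 4 profiles. The peak at 1285.0 kb, beside Igkv12-89, scored -0.74 and -0.63 in the controls, -0.63 in dTAG 1 and 0.72 in dTAG 2. dTAG 2 was alone in passing 0 there. Of the 162 V segments, 115 scored below 0 in all 4 profiles and 18 above. The 60 V pseudogenes averaged -2.36 ± 0.41 in the control (SD, n = 2) and the 102 others -1.69 ± 0.45. By family, Igkv15 was the latest of those with 5 or more segments at -3.76 ± 0.57, and Igkv3, the family at the constant end, the earliest at -0.16 ± 0.60.

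Tcra and Tcrd was a plateau in the middle of the scale with early ends. Trac, the alpha constant gene, scored 3.70 and 3.46 in the controls and 3.61 and 3.75 after dTAG, and Trdc, the delta constant gene nested between the V and alpha J segments, 3.27 and 2.71 against 3.09 and 2.96. All 62 J segments were above 0 in all 4 profiles, with the 60 alpha J segments at 3.33 ± 0.29 in the control (SD, n = 2). Trav1, the outermost V segment, scored 2.88 and 2.62 in the controls and 2.87 and 3.01 after dTAG. The olfactory receptor genes Olfr1509, Olfr1508 and Olfr1507, smell receptors that sit beside it within the locus, fell off inward with means of 2.60, 2.40 and 1.92 over the 4 profiles.

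The V segments in between averaged 0.52 ± 0.02 in the control (SD, n = 2) and 0.38 ± 0.17 after dTAG, with 81 of 136 above 0 in all 4 profiles and 0 below. The 6 segments named for delta alone (Trdv), which lie in the last part of the locus, averaged 1.62 ± 0.38 in the control, and the 130 Trav segments 0.47 in control 1 and 0.46 in control 2. Part of the Trav array exists in near-identical copies, whose names carry d or n. For the 25 segments with all 3 copies the control averaged 0.19 for the d copies, 0.17 ± 0.03 (SD, n = 2) for the n copies and 0.96 ± 0.05 for the copies with neither letter. Reads of such copies can be shared or lost in alignment, so differences between copies are uncertain. The locus sloped up toward the constant genes by 1.02 and 0.78 per Mb in the controls and 0.82 and 0.77 after dTAG.

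Tcrb was the latest of the 4 and the shortest, and over its whole length it had the steepest slope among them. The slope was 6.79 and 6.14 score units per Mb in the controls and 5.72 and 4.72 after dTAG. The still shorter Igl and Tcrg sloped by -7.97 and 10.04 per Mb (means of 4 profiles). A straight line over Tcrb accounted for 0.841 of the variance (r squared). The steepest 200 kb change of Tcrb was the smallest of the 4 loci, at 2.22 in the mean of 4 profiles. Of the genome's steps, 10.9% equalled or passed it. At its V end Trbv1 scored -3.54 and -4.02 in the controls and -3.40 and -4.56 after dTAG. Of the 35 V segments 34 were below 0 in all 4 profiles. The exception is Trbv31, a V segment on the far side of the constant genes, at 0.95, -0.35, 0.30 and -1.17 in control 1, control 2, dTAG 1 and dTAG 2. The trypsinogen genes from Try4 to Prss2, digestive proteases interspersed in the locus, followed the slope. Try4 scored -2.55 ± 0.69, Prss1 -0.93 ± 0.77 and Prss2 -0.23 ± 0.82 (SD, 4 profiles). Other genes nearer the V end showed no such rise, with Prss58 at -3.80, Gm2663 at -3.51 and 2210010C04Rik at -3.77 (means of 4 profiles). Trbc1 and Trbc2, the beta constant genes, scored 0.81 and 0.85 in control 1, -0.37 and -0.36 in control 2, 0.22 and 0.24 in dTAG 1 and -1.21 and -1.2 in dTAG 2, so that their side of 0 followed the replicate number.

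The question of the series for YY1 is whether its depletion moved replication. None of the 170 windows of 50 kb in the 4 loci passed limma at an adjusted p of 0.05, with 0 of 170 at an unadjusted p under 0.05. Of all 51425 windows 0 were called (0%), with 500 at an unadjusted p under 0.05. With the replicate number as a block the test called 0 windows in the loci, with 29 of 170 at an unadjusted p under 0.05 and a smallest adjusted p of 0.306. Over all windows that test called 0, with 6224 of 51425 at an unadjusted p under 0.05 and a smallest adjusted p of 0.231. No window of the loci had both dTAG profiles at least 0.5 above or below both controls, against 0.531% of all windows above and 1.09% below. By any amount, 23 of the 170 windows had both dTAG values above the controls, 16 of them in Igk, against 10.9% of all windows. In 8 windows both dTAG values were below the controls, 7 of them in Tcra and Tcrd, against 8.53% of all windows.

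The mean of a whole locus differed little between the groups. It was 0.20 higher after dTAG at Igh (0.34 within replicate number 1, 0.07 within number 2) and 0.37 higher at Igk (0.18 and 0.56). The difference was -0.09 at Tcra and Tcrd (-0.05 and -0.12) and -0.26 at Tcrb (-0.25 and -0.27). The exact permutation p over 4 profiles was 0.667 at each locus (adjusted p = 0.667 over the 4). At each locus the controls differed from one another by more than the groups did, for example by 0.58 at Igk and by 1.07 at Tcrb. With 1 profile left out, the difference at Igh was 0.01 to 0.39 and that at Igk 0.08 to 0.66. At Tcrb it was 0.28 without control 1 and 0.28 without dTAG 2, opposite in sign to the value from all 4 profiles, and at Tcra and Tcrd it was 0.0128 without dTAG 2.

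**Figure D5:**
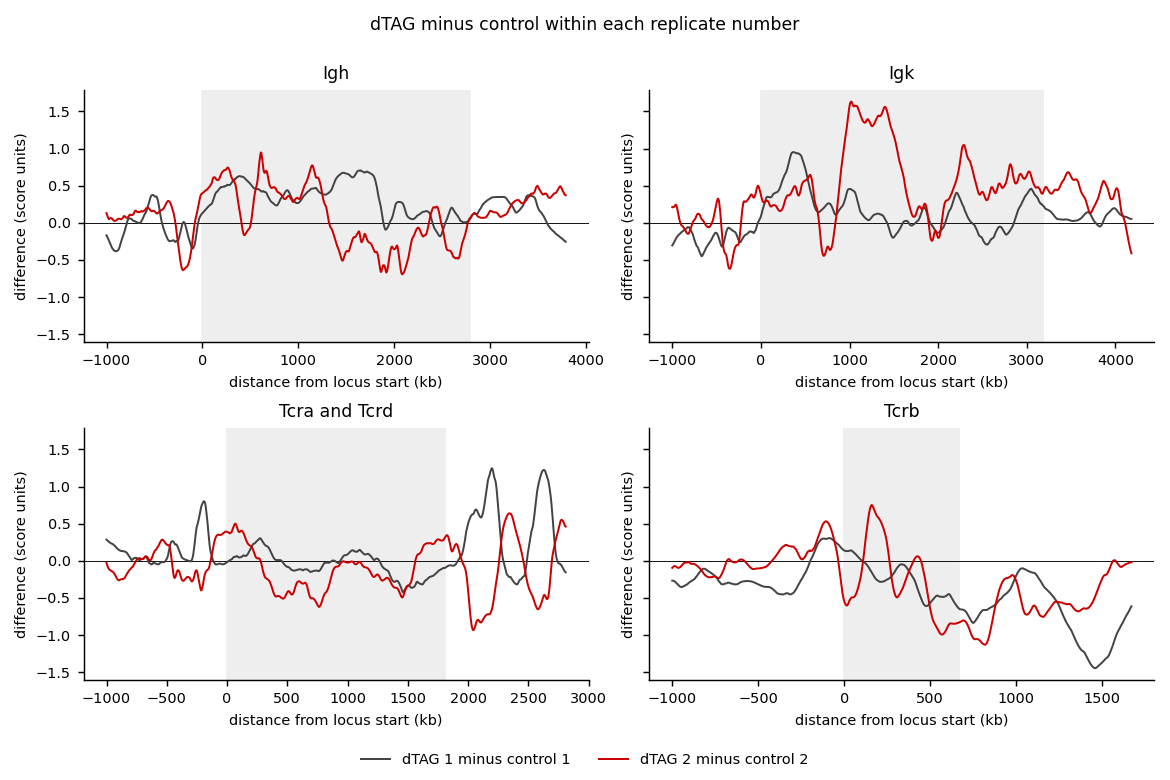
Difference of dTAG minus control within each replicate number (y axis, score units) against distance from the start of each locus (x axis, kb), with the locus shaded. Both lines are above 0 over the constant end of Igh and most of Igk and below 0 over the constant end of Tcrb, and dTAG 2 stands apart from dTAG 1 around 1285 kb in Igk.

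The sign of the difference within the replicate numbers was not the same at the 4 loci. dTAG was above control in both numbers in 41 of 64 windows of Igk and 26 of 56 of Igh, against 31.7% of all windows, and in 5 of 37 of Tcra and Tcrd and 0 of 13 of Tcrb. It was below control in both numbers in 16 of 37 windows of Tcra and Tcrd and 7 of 13 of Tcrb, against 29% of all windows, and in 3 of Igk and 2 of Igh. Neighbouring windows are smoothed together, so these counts are of few independent stretches and carry no test. Differences of at least 0.5 in both numbers were found in 4 windows above control, 2 in Igh and 2 in Igk, against 2.22% of all windows, and in 1 window below control, in Tcrb, against 3.26%.

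At the constant end of Igh dTAG was above control in both replicate numbers at all 8 constant genes, all 4 J and all 20 D segments. These segments stand on 8, 1 and 9 positions of a smoothed slope, and 31.7% of all windows were above control in both numbers. The class difference was 0.43 for the constant genes (0.32 and 0.55 within the numbers), 0.58 for J (0.48 and 0.69) and 0.60 for D segments (0.50 and 0.71). In each class the groups overlapped, with control 1 above dTAG 2, and the exact permutation p was 0.667. The gap between the controls was 0.68, 0.71 and 0.76 in the same order, larger than these differences. The position at which the score passes 0 was 33.6 kb farther into the locus after dTAG (29.2 and 38.0 kb; exact permutation p = 0.667). The groups overlapped there, because control 1 at 245.9 kb lay beyond dTAG 2 at 243.2 kb. The window with the highest difference in Igh, chr12:113800001-113850000 near Ighv5-15, scored -2.52 ± 0.32 (SD, n = 2) in the control and -1.88 ± 0.03 after dTAG, with 0.43 and 0.85 within the numbers (limma without the block, adjusted p = 1). The lowest, chr12:115100001-115150000 near Ighv1-50, scored -2.18 ± 0.77 and -2.52 ± 0.38 (-0.06 and -0.61).

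At the V end of Igk the score passed 0 at 210.8 and 200.8 kb from the start in the controls and at 342.7 and 226.8 kb after dTAG. The groups did not overlap there, with differences of 131.9 and 26 kb within the numbers (exact permutation p = 0.333, the smallest possible). In Igk the highest difference was in the window chr6:68550001-68600000, at -3.08 ± 0.27 (SD, n = 2) in the control and -2.05 ± 0.55 after dTAG. It rested more on dTAG 2 (1.6 above control 2) than on dTAG 1 (0.44 above control 1), and limma without the block gave an adjusted p of 1. The neighbouring peak at Igkv12-89 rested on dTAG 2 as well, with differences of 0.11 and 1.35 within the numbers. At the constant end the score passed 0 at 3061 and 3099 kb in the controls and at 3032 and 3069 kb after dTAG, farther from the constant gene by a difference of -29.5 and -30.0 kb within the numbers (exact permutation p = 0.667). Igkc itself differed by 0.32 (0.24 and 0.39).

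At the constant genes of Tcrb, and on average over the flank beyond them, dTAG was below control in both replicate numbers. The difference was -0.72 at Trbc1 (-0.59 and -0.84), -0.80 at the receptor kinase gene Ephb6 in the flank (-0.73 and -0.88) and -0.91 at the calcium channel gene Trpv6 (-0.81 and -1.0). The whole flank at higher coordinates differed by -0.63 (-0.72 and -0.54). The V segments of Tcrb differed by -0.05 (-0.19 and 0.10), so that the constant minus variable gap was 3.56 and 3.83 in the controls and 3.16 and 2.89 after dTAG. For this gap both dTAG values were below both controls, and the exact permutation p was 0.333, the smallest possible. The window with the lowest difference, chr6:41450001-41500000 near Trbd1, scored -0.34 ± 0.61 (SD, n = 2) in the control and -1.05 ± 0.94 after dTAG, where limma gave an adjusted p of 1 and, with the replicate block, 0.312.

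In Tcra and Tcrd the differences were small. The extreme windows differed by 0.25 near Trav1 (0.05 and 0.45 within the numbers) and by -0.42 near Trav21-dv12 (-0.38 and -0.45), and the V segments as a class by -0.14 (-0.03 and -0.24). Trac and Trdc differed by 0.10 and 0.03, with opposite signs in the replicate numbers.

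The genes of the recombination machinery and of lymphocyte receptor partners and factors were early about as often as genes in general. Of 30 listed genes 25 scored above 0 in all 4 profiles and 2 below, with a median control score of 3.73. Of 21519 protein-coding genes, 77.5% were above 0 in all 4 profiles and 17.9% below, and the median control score was 3.24. Rag1 and Rag2, the recombinase genes, were in the middle of the scale at 0.54 and 0.36 in control 1, -0.36 and -0.53 in control 2, 0.94 and 0.74 in dTAG 1 and -0.17 and -0.33 in dTAG 2. The earliest by control mean was Paxx, an end-joining factor gene, at 5.0 ± 0.53 (SD, n = 2), and the latest Lig4, the DNA ligase gene of end joining, at -2.16 ± 0.20. Bcl11b, a T cell factor gene on the chromosome of Igh, scored 0.11 ± 0.76. None of the 30 lay in a called window, 0 had an unadjusted p under 0.05, and their median difference was -0.03, beside -0.02 for all protein-coding genes.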

How the data were processed

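The deposited table holds 1 score per 5 kb position and profile on mm10, and per the file headers and name the authors smoothed the score with Loess and quantile normalized it. What was divided, the log base and the sign are not stated there. Bowtie2, SAMtools and bedtools are named in the submitters' processing notes, without versions. Of 526745 positions, 514245 had a value in all 4 profiles and were used.

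Scores were averaged over windows of 50 kb with at least 0.5 of their 10 positions, and tested in limma 3.58.1 (R 4.3.3) for the group alone, 2-sided, at a Benjamini-Hochberg adjusted p of 0.05. The code was checked on simulated windows with independent noise and changes larger than the highest locus difference of 1.02. The simulation left out the deviation that same-numbered profiles share. It therefore cannot show whether changes of the size seen in the loci would be called. A window belonged to a locus if its centre did. Locus means, contrasts with 1 Mb flanks and least-squares slopes were computed per profile in Python 3.11.15 and tested by exact 2-sided permutation of groups or of signs. Peaks and troughs needed a prominence of at least 1 score unit in the mean of 4 profiles (scipy 1.17.1). Genes took the score nearest their midpoint in the RefSeq table of GRCm38.p6, whose gene types give the segment classes, while families follow the symbols. Whether a position is the start, centre or end of its 5 kb is not stated. Genes were named by role and position: constant genes, the nearest and farthest V segment, other genes inside and beside a locus, the windows with the highest and lowest difference, and from the recombination list Rag1, Rag2, members on a chromosome of a locus and the highest and lowest by control mean; a member of that list is not reported here. Segments and families named at peaks, troughs or extremes were chosen after their values were seen. Loci, lists and tests were chosen with earlier results of these data known. Alternatives were other normalization, windows, edges, flanks, slopes, variance, replicate block and leaving out each profile.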

Additional observations from a re-analysis of the deposited data

How the results depend on the processing

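Of 58 alternatives that left out no profile, 54 kept the direction or stayed within 1.5 times the count, 0 turned a direction, and 4 moved a count. With the replicate block and a trended and robust variance, which was added after seeing the data, 1462 windows of the genome and 0 in the loci passed limma. At a separation of 0.25 both dTAG profiles lay on one side of both controls in 2780 windows of the genome instead of 834, and in 8 of the loci instead of 0 (2 in Igh, 6 in Igk, all above control). With windows of 200 kb the genome count was 186 of 12860 windows, against 834 of 51425, so it was lower mainly because there were fewer windows. The replicate number as a block left the locus differences as they were and gave an exact p of 0.5, the smallest for 2 pairs. Same-numbered profiles deviated together (r = 0.765 between the control and the dTAG differences of the numbers, across windows, which are not independent), but the labels do not say what a number marks. The cause of the other changes was not tested.

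Without 1 profile, the dTAG minus control difference was 0.01 to 0.39 at Igh, 0.08 to 0.66 at Igk, -0.19 to 0.01 at Tcra and Tcrd (0.0128 without dTAG 2) and -0.81 to 0.28 at Tcrb (0.276 without control 1 and 0.282 without dTAG 2). The locus minus flanks was -3.54 to -3.14, -4.57 to -4.40, -2.65 to -2.55 and -1.79 to -1.69 in the same order, and the slope -1.25 to -1.04, 0.03 to 0.14, 0.79 to 0.87 and 5.53 to 6.22 per Mb. limma called 0 to 4 windows of the genome and 0 to 0 in the loci. Windows apart by 0.5 numbered 3651 to 7374 of 51425 in the genome and 9 to 30 of 170 in the loci. With 1 profile fewer this rule is easier to meet, so these counts cannot fall below the 834 and 0 from all 4 profiles. The depth is unknown, so the precision it gives cannot be stated.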
